A study of Homo sapiens with 4 samples.

Results

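Collagen chain genes were examined in OVCAR5 cells, a human line established from ovarian cancer that the labels list as OVCAR-5, high grade serous, from ascites, at passage 4-6. The members were all genes whose symbol is COL, a type number, A and a chain number, which found 44 of the 56655 genes in the count tables. Polyadenylated RNA was sequenced from 2 libraries of cells carrying a nontargeting hairpin (shCtrl) and 2 libraries of cells carrying a hairpin directed at FOXK2 (shFOXK2), a forkhead transcription factor. Both groups were stable lines made by lentiviral transduction and puromycin selection, each with a single hairpin, and no label says whether the libraries of a group came from separate cultures, so p-values measure the spread between these libraries.

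Collagens are secreted or membrane-bound proteins built from 3 chains that wind into a triple helix, which requires glycine at regular, close spacing along each chain. Fibrillar collagens form the cables of connective tissue, and FACIT collagens (fibril-associated collagens with interrupted triple helices) decorate the surface of those cables. Collagen IV makes the sheet of the basement membrane beneath an epithelium, beaded filaments of collagen VI link that sheet to the surrounding matrix, and transmembrane collagens sit in the plasma membrane of the cell that makes them. Each chain is encoded by its own gene, and chains of 1 trimer are often encoded by neighbouring genes.

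Library totals ran from 14284005 to 21950873 counts. FOXK2 itself gave 1796 and 1499 reads with the control hairpin and 1086 and 1084 with its own hairpin. The log2 fold change of −0.36 (SE 0.25) did not pass the threshold (edgeR adjusted p = 0.257). It was −0.07 with an offset on the GC content of the transcript and −0.04 with one on A content. The study reported lower FOXK2 mRNA by qRT-PCR and lower protein by Western blot in OVCAR5 cells with FOXK2 hairpins. All 7 epithelial markers examined were detected in each library, from 13 counts of CDH1 in 1 shFOXK2 library to 44648 counts of KRT8 in 1 shCtrl library, and CDH1, MUC1 and CLDN4 fell in shFOXK2. Of 5 Müllerian and serous markers, PAX8 and MUC16 were detected in shCtrl and fell (PAX8 passed in 8 of 11 other fits, with adjusted p up to 0.0752), whereas WT1, SOX17 and ESR1 had at most 3 counts in each library. Of 10 fibroblast markers, DCN, FAP, POSTN and TWIST1 had at most 3 counts in each library. The list summed to 7.58 and 8.41 CPM in shCtrl and 1.55 and 2.53 CPM in shFOXK2. CPM are read counts scaled to library size by the trimmed mean of M values. Most of the shCtrl sum was 1 gene, PDGFRB, at 5.69 and 5.42 CPM against 0.141 and 0.440 CPM in shFOXK2. Of the 2 fibroblast markers tested only PDGFRB was called. THY1, too low to test, went the other way, from 0 and 0 counts to 6 and 6. The 6 endothelial markers summed to 11.2 and 8.10 CPM in shCtrl and 1.76 and 2.91 CPM in shFOXK2, with KDR and TEK at most 3 counts. Most of the shCtrl sum was PECAM1, which went from 154 and 90 counts to 9 and 29, and CDH5, from 76 and 33 to 0 and 0. CLDN5 went the other way, from 12 and 6 counts to 15 and 16, and was not called. VWF had at most 7 counts in each library. The part of these shifts in the collagen values was not tested. All libraries came from 1 cell line, and in bulk RNA fewer cells expressing a marker and less RNA per cell cannot be told apart.

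To ask how collagen expression differs when FOXK2 is targeted, the 4 libraries were compared gene by gene. The cells expressed a restricted set of collagens: 23 of the 44 members had enough reads to be tested, and these are exactly the 23 that reached 10 counts in some library. The other 21 had between 1 and 9 counts in the library where they were highest, and 8 of them had 0 counts in both shCtrl libraries. The untested members included COL1A2, COL2A1 and COL3A1, major chains of connective tissue fibrils, so COL1A1 was measured with hardly any transcript of its usual partner. A level of 3 counts corresponds to 0.134 to 0.211 CPM, and collagens under it were not detectable at this depth.

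Of the 23 tested members, 8 fell in shFOXK2 and 4 rose, while 11 did not pass an adjusted p of 0.05 (edgeR quasi-likelihood test, adjusted over all 16417 genes tested). Among all tested genes, 22.7% were called lower and 25.7% higher, 48.4% in all. The median log2 fold change was −0.65 over the 23 members and 0.04 over all tested genes, and the members ranged from −4.96 to 2.06. The size of the median over these 23 members depended on the processing, although it stayed negative in each fit. It was −0.34 under the A-content offset and −0.38 under the GC offset. Among those of the 23 with at least 10 counts in every library it was −0.36. With no filter, still over these 23, it was −0.75. The other members, tested only with no filter, ran from −3.09 (COL2A1) to 5.26 (COL10A1) and were not in any of these medians. Leaving out 1 library gave medians of −0.79 to −0.49 over the 23. The genes that fell were COL4A4, COL4A5, COL8A2, COL9A2, COL9A3, COL12A1, COL16A1 and COL22A1. Those that rose were COL13A1, COL14A1, COL17A1 and COL27A1. For a member that passed the filter through 1 group alone, being tested was tied to direction. The count among the 23 therefore does not describe all 44.

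**Figure D1:**
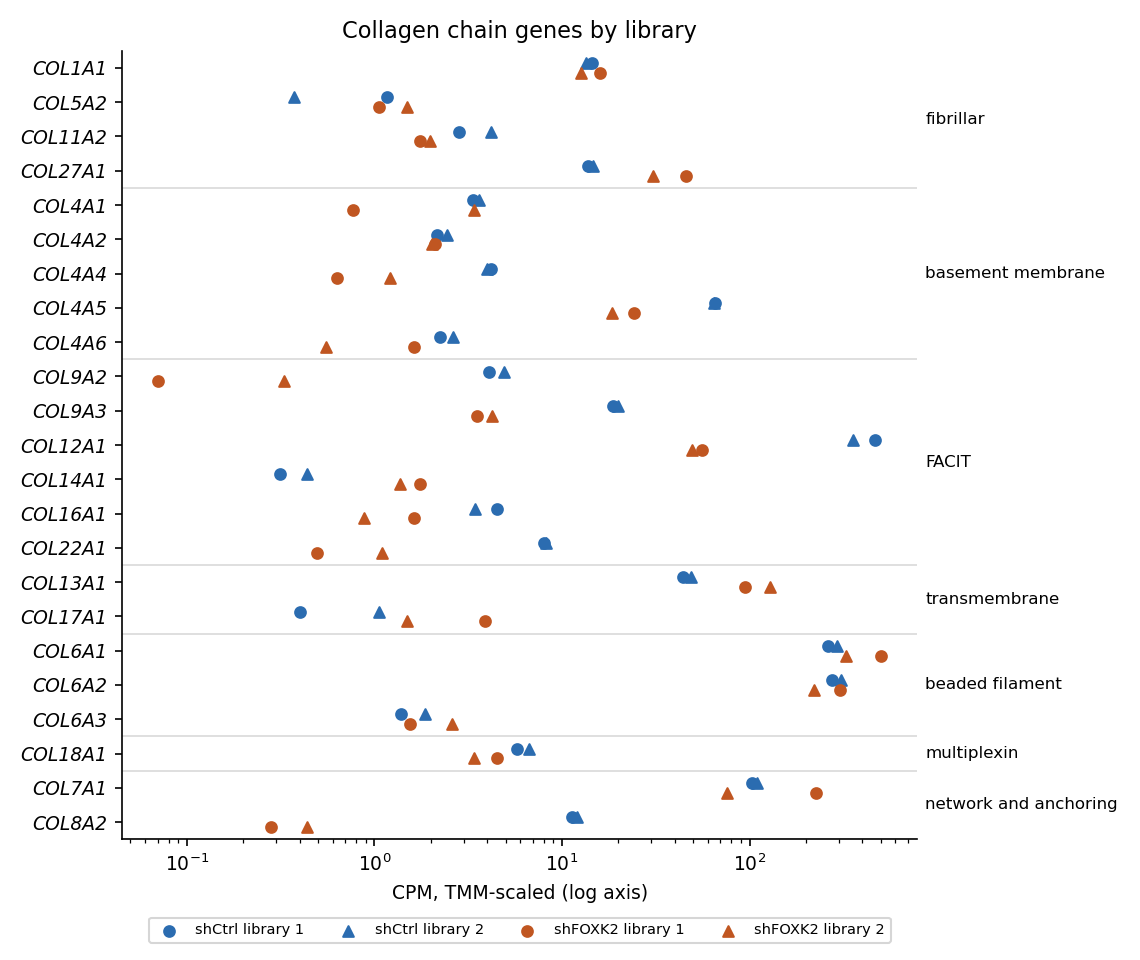
CPM of the 23 tested collagen chain genes on a log axis, grouped by class, with 1 point for each library (blue, shCtrl; orange, shFOXK2; circle, library 1; triangle, library 2). COL12A1 stood at 356 and 469 CPM in shCtrl and at 49.7 and 56.1 CPM in shFOXK2, whereas the points of COL6A2 and COL1A1 intermingle.

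**Figure D2:**
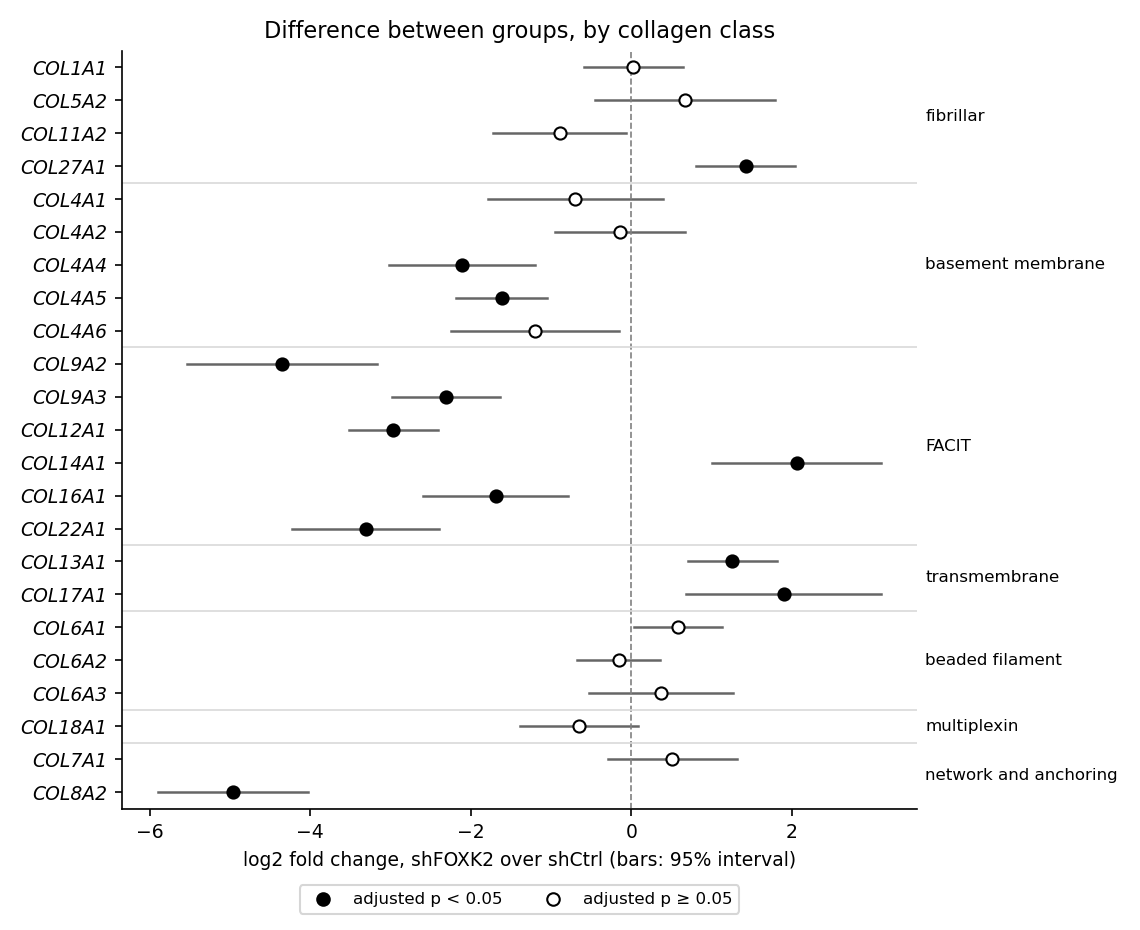
Log2 fold change of shFOXK2 over shCtrl for the same 23 genes with its 95% interval from the edgeR fit, filled where the adjusted p was under 0.05. Of the 6 FACIT genes, 5 lie below 0 and COL14A1 lies above it, and both transmembrane genes lie above 0.

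The FACIT class held 5 of the 8 genes that fell. Of its 10 members 6 were tested, and of these 5 fell and 1 rose, with a median log2 fold change of −2.64. COL9A2 and COL22A1 passed the filter through shCtrl alone, and COL14A1 through shFOXK2 alone. For these genes being tested was tied to direction, so the tally does not describe all 10 members. COL12A1, which encodes the single chain of the fibril-associated collagen XII, ranked behind only COL6A2 and COL6A1 per length in shCtrl. COL12A1 (ENSG00000111799.22, chromosome 6, 75084326 to 75206267, minus strand, hg38) gave 10472 and 5720 reads in shCtrl against 798 and 904 in shFOXK2. For COL12A1 these corresponded to 469 and 356 CPM in shCtrl and to 56.1 and 49.7 CPM in shFOXK2. The shCtrl libraries differed from each other by less than either did from the shFOXK2 libraries, and the groups did not overlap. COL12A1 was 7.81-fold lower in shFOXK2 (log2 fold change −2.97, SE 0.26, adjusted p = 2.93e-06), which stayed between −3.07 and −2.81 over 11 other ways of fitting the data.

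COL9A2 and COL9A3 encode the α2 and α3 chains of collagen IX, best known from cartilage. COL9A3 (chromosome 20, 62816244 to 62841159) was at 18.7 and 19.8 CPM in shCtrl and at 3.52 and 4.23 CPM in shFOXK2. Replicates lay close together, and the fall of 4.97-fold (log2 fold change −2.31, SE 0.31, adjusted p = 7.57e-05) was large against their spread. Its exons overlap those of TCFL5 on the opposite strand, and TCFL5 also fell, from 701 and 592 counts to 216 and 202, so reads of the shared stretch cannot be told apart. COL9A2 (chromosome 1, 40300489 to 40317813) gave 91 and 79 reads in shCtrl against 1 and 6 in shFOXK2. Few reads were left in shFOXK2. The summed counts, scaled to library size, gave a ratio of shCtrl to shFOXK2 of 20.5. The exact 95% counting interval, from 9.75 to 51.8, covers counting error alone. The edgeR adjusted p of COL9A2 was 4.62e-05. COL9A1, the gene of the α1 chain, had 1 count in 1 shFOXK2 library and 0 in the other 3 libraries.

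COL22A1, which encodes a collagen of tissue junctions, and COL16A1 were the other FACIT genes that fell. COL22A1 (chromosome 8, 138588235 to 138914041) went from 8.07 and 8.22 CPM in shCtrl to 0.492 and 1.10 CPM in shFOXK2, which is 10.2-fold (log2 fold change −3.31, SE 0.43, adjusted p = 5.38e-05). COL16A1 (chromosome 1, 31652263 to 31704319) went from 4.48 and 3.43 CPM to 1.62 and 0.879 CPM (log2 fold change −1.69, SE 0.42, adjusted p = 0.00477). Each was lower in both shFOXK2 libraries than in either shCtrl library. COL16A1 overlaps PEF1-AS1 on the opposite strand, and the strand setting of the counting was not given in the sources used here.

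COL14A1 was the FACIT gene that rose. It encodes collagen XIV, which like collagen XII binds fibrils of collagen I. COL14A1 (chromosome 8, 120059780 to 120373573) gave only 7 and 7 reads in shCtrl against 25 and 25 in shFOXK2, or 0.314 and 0.436 CPM against 1.76 and 1.37 CPM. The log2 fold change was 2.06 (SE 0.49, adjusted p = 0.00371), and without shCtrl replicate 1 it was 1.78 with an adjusted p of 0.0633. Even after this rise COL14A1 stood far below COL12A1 per length, at 0.196 against 4.51 CPM per kilobase of transcript in shFOXK2. The remaining 4 FACIT genes, COL9A1, COL19A1, COL20A1 and COL21A1, had at most 6 counts in each library.

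Both tested transmembrane collagens rose, although COL17A1 passed the filter through shFOXK2 alone, where it was higher. COL13A1 encodes collagen XIII, a plasma membrane collagen of cell adhesion sites, and was the most abundant of the class. COL13A1 (ENSG00000197467.17, chromosome 10, 69801880 to 69964275, plus strand) gave 984 and 787 reads in shCtrl against 1342 and 2342 in shFOXK2, or 44.1 and 49.0 CPM against 94.3 and 129 CPM. The lower shFOXK2 library was well above the higher shCtrl library. The rise was 2.39-fold (log2 fold change 1.26, SE 0.26, adjusted p = 0.00133), and its range over 11 other fits was 1.16 to 1.62.

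COL17A1 encodes collagen XVII, the hemidesmosome protein that ties epithelial cells to the basement membrane. COL17A1 (chromosome 10, 104031286 to 104085880) gave 9 and 17 reads in shCtrl against 55 and 27 in shFOXK2, or 0.403 and 1.06 CPM against 3.87 and 1.48 CPM. The groups did not overlap, but the nearest libraries, at 1.06 and 1.48 CPM, were close. Its log2 fold change was 1.90 (SE 0.56, adjusted p = 0.0133). Without shCtrl replicate 1 it was 1.28 (adjusted p = 0.0972), and without shFOXK2 replicate 1 it was 1.06 (adjusted p = 0.102), so the call rests on single libraries. COL23A1 and COL25A1, the other 2 of the class, had at most 2 counts in each library.

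The fibrillar class was mostly silent, with 4 of 11 members tested and 1 called. COL27A1, a fibrillar collagen with a short helix, rose. COL27A1 (ENSG00000196739.15, chromosome 9, 114155537 to 114312511, plus strand) gave 308 and 236 reads in shCtrl against 653 and 559 in shFOXK2, or 13.8 and 14.7 CPM against 45.9 and 30.7 CPM. Both shFOXK2 libraries were above both shCtrl libraries, and the rise was 2.69-fold (log2 fold change 1.43, SE 0.29, adjusted p = 0.00123). COL1A1, the main chain of collagen I, was at 14.5 and 13.4 CPM in shCtrl and at 15.9 and 12.6 CPM in shFOXK2. Its groups overlapped, and the log2 fold change of 0.03 had a 95% interval from −0.59 to 0.64, which leaves room for a modest difference either way. COL1A2 had 0, 0, 0 and 2 counts in the 4 libraries, and COL3A1 had 2, 0, 1 and 2. The other 5 untested fibrillar genes, COL2A1, COL5A1, COL5A3, COL11A1 and COL24A1, had at most 6 counts in each library. COL11A2 and COL5A2 were low and did not pass, at log2 fold changes of −0.89 (adjusted p = 0.0711) and 0.67 (adjusted p = 0.309). COL5A2 was 1.72 without shCtrl replicate 1 (adjusted p = 0.0982) and 0.06 without shCtrl replicate 2 (adjusted p = 0.955).

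Basement membrane collagen IV is assembled from 3 pairs of head-to-head genes, COL4A1 with COL4A2, COL4A3 with COL4A4, and COL4A5 with COL4A6. Of the 6 genes, 5 were tested, all with a log2 fold change below 0 (median −1.20), and 2 of them passed. Under offsets on base composition COL4A2, which did not pass, was above 0 instead. COL4A5 was by far the most abundant. COL4A5 (ENSG00000188153.14, chromosome X, 108439838 to 108697545, plus strand) gave 1468 and 1034 reads in shCtrl against 343 and 335 in shFOXK2, or 65.8 and 64.4 CPM against 24.1 and 18.4 CPM. The shCtrl libraries were almost equal and the fall was 3.06-fold (log2 fold change −1.62, SE 0.26, adjusted p = 2.90e-04).

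COL4A6 starts on the minus strand just upstream of COL4A5 and encodes the α6 chain. COL4A6 gave 50 and 42 reads in shCtrl against 23 and 10 in shFOXK2, with a log2 fold change of −1.20 (SE 0.48) and an adjusted p of 0.0555. It passed in 6 of 11 other fits, among them the fit with the replicate block (edgeR adjusted p = 0.0351). Another of the 6 had a block of crossed replicate numbers, chosen after seeing the data. Over the 11 fits the adjusted p ran from 0.0109 to 0.160. Without shFOXK2 replicate 1 the log2 fold change was −2.15 and without shFOXK2 replicate 2 it was −0.61. There were 29.4 and 24.6 reads of COL4A5 for each read of COL4A6 in shCtrl and 14.9 and 33.5 in shFOXK2, so the ratio of the pair did not separate the groups.

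Because this pair shares an upstream region at a start of COL4A6, the stretch before the COL4A5 start is shown. Capitals mark the bases that also lie in the COL4A6 window at 108439459 to 108439708, the 250 bases upstream of that start. The other RefSeq window of COL4A6, at 108438423 to 108438672, shares none of them. The stretch shown is chrX:108439588-108439837, plus strand, from RefSeq on GRCh38.p14, and 121 of its 250 bases are shared.

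COL4A5 upstream: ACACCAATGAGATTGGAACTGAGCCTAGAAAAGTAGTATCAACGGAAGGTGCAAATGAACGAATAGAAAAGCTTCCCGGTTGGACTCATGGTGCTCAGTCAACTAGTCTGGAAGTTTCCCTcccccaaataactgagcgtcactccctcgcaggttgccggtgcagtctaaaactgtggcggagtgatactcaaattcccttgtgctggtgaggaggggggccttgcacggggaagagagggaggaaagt

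COL4A4 (chromosome 2, 227002714 to 227164453) was the other collagen IV gene that fell. COL4A4 gave 93 and 64 reads in shCtrl against 9 and 22 in shFOXK2, or 4.17 and 3.99 CPM against 0.633 and 1.21 CPM (log2 fold change −2.11, SE 0.42, adjusted p = 0.00117). Its head-to-head partner COL4A3 gave 6 and 1 reads in shCtrl against 2 and 9 in shFOXK2, too few to test. COL4A1 and COL4A2, the chains of the most widespread collagen IV, were low in these cells. COL4A1 gave 75 and 58 reads in shCtrl but 11 and 62 in shFOXK2, so 1 shFOXK2 library was within the range of the controls on the CPM scale, at 3.41 against 3.36 and 3.61 CPM, and the other was far below, at 0.773 CPM. Its log2 fold change of −0.70 (adjusted p = 0.272) became −2.19 (adjusted p = 1.38e-04) without shFOXK2 replicate 2. COL4A2 did not follow it, at 2.15 and 2.43 CPM in shCtrl and 2.11 and 2.03 CPM in shFOXK2.

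Collagen VI accounted for the largest share of collagen reads in each library. COL6A1 and COL6A2, tandem genes on chromosome 21 that encode the α1 and α2 chains of 1 trimer, were the most abundant members per length in both groups. COL6A1 (45981770 to 46005050) was at 262 and 294 CPM in shCtrl and at 504 and 328 CPM in shFOXK2. Both shFOXK2 libraries were above both shCtrl libraries, but the log2 fold change of 0.58 (SE 0.26) did not pass (adjusted p = 0.0746). It passed in 4 of 11 other fits, 1 of them with a block of crossed replicate numbers chosen after seeing the data. The other 3 had an offset on base composition, where the log2 fold change ran up to 0.93. Without shFOXK2 replicate 1 it was 0.21 (adjusted p = 0.614) and without shFOXK2 replicate 2 it was 0.83 (adjusted p = 0.0306). COL6A2 (46098112 to 46132848) was at 276 and 308 CPM in shCtrl and at 303 and 222 CPM in shFOXK2, with overlapping groups and a log2 fold change of −0.16 (95% interval −0.67 to 0.36, adjusted p = 0.618) that was 0.19 with an offset on A content.

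Within each library the 2 chains could be set against each other directly. There were 0.947 and 0.955 reads of COL6A1 for each read of COL6A2 in shCtrl and 1.67 and 1.48 in shFOXK2. The ratio hardly differed between the shCtrl libraries and higher in both shFOXK2 libraries, but no permutation of 2 against 2 libraries can give a 2-sided exact p under 0.333. COL6A3, the gene of the α3 chain that completes the usual trimer, was nearly absent by comparison, at 1.39 and 1.87 CPM in shCtrl and 1.55 and 2.58 CPM in shFOXK2. COL6A5 and COL6A6, which encode alternative chains, had at most 6 counts in each library.

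**Figure D3:**
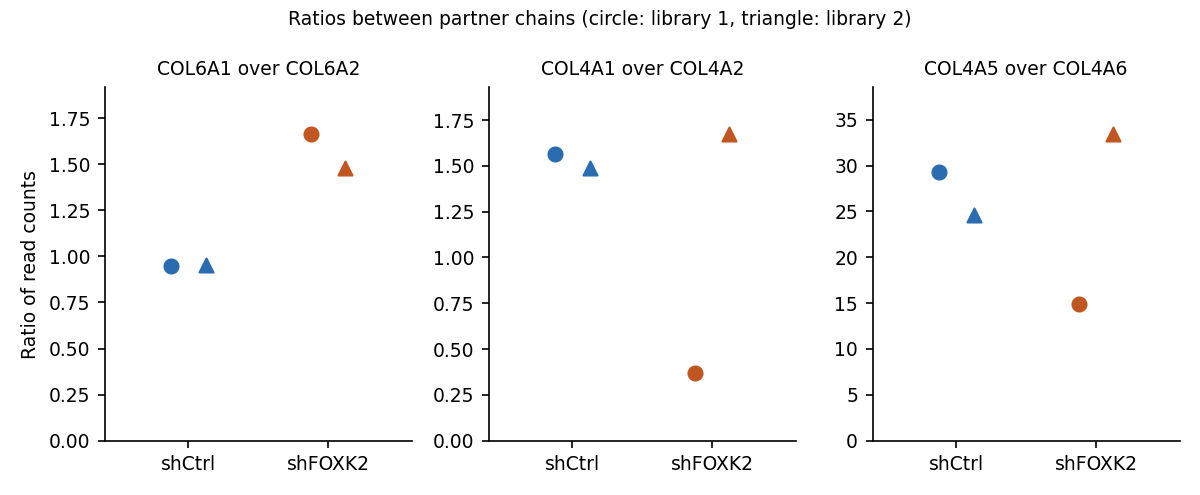
Read counts of 1 chain gene divided by those of its partner in each library, on linear axes from 0 (blue, shCtrl; orange, shFOXK2; circle, library 1; triangle, library 2). COL6A1 over COL6A2 was 0.947 and 0.955 in shCtrl and 1.67 and 1.48 in shFOXK2, while COL4A1 over COL4A2 was 1.56 and 1.49 in shCtrl and 0.367 and 1.68 in shFOXK2.

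Among network-forming and anchoring collagens, COL8A2 fell to near the detection floor. COL8A2 passed the filter through shCtrl alone, where it was higher, so being tested was tied to its direction. Its fold change was the lowest of the 23 tested members, but its counting interval overlaps that of COL9A2, and without shFOXK2 replicate 2 COL9A2 was lower (−5.89 against −5.37 for COL8A2). It encodes the α2 chain of collagen VIII, a component of the sheet under corneal and vascular endothelium. COL8A2 (ENSG00000171812.13, chromosome 1, 36095239 to 36125222, minus strand) gave 251 and 194 reads in shCtrl against 4 and 8 in shFOXK2, or 11.2 and 12.1 CPM against 0.281 and 0.440 CPM. The summed counts, scaled to library size, gave a ratio of shCtrl to shFOXK2 of 31.3, with an exact 95% counting interval from 17.8 to 61.1. The log2 fold change was −4.96 (SE 0.43, edgeR adjusted p = 3.24e-06). COL8A1, its partner chain, had at most 5 counts in each library. COL7A1 encodes the anchoring fibrils that fasten the basement membrane to the tissue below. COL7A1 was at 103 and 109 CPM in shCtrl and at 225 and 75.98 CPM in shFOXK2, 1 library above and 1 below both controls. Its log2 fold change of 0.51 (adjusted p = 0.279) became 1.06 (adjusted p = 0.00467) without shFOXK2 replicate 2 and −0.50 (adjusted p = 0.242) without shFOXK2 replicate 1, so these libraries give it no direction.

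COL18A1, a multiplexin of basement membranes whose C-terminal fragment is endostatin, was at 5.74 and 6.67 CPM in shCtrl and at 4.50 and 3.41 CPM in shFOXK2. Both shFOXK2 libraries were lower, but the log2 fold change of −0.65 (SE 0.34) did not pass (adjusted p = 0.130). Its exons overlap SLC19A1 on the opposite strand, which gave 1128 and 1011 reads in shCtrl against 1273 and 1065 in shFOXK2. COL15A1, the other multiplexin, had at most 4 counts in each library, and COL10A1, COL26A1 and COL28A1 had at most 7.

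The make-up of collagen transcripts differed more than their total. Collagen genes took 0.129% ± 0.00806 of all shCtrl counts against 0.111% ± 0.0262 under shFOXK2 (SD, n = 2 each), which differ by less than the spread of the shFOXK2 libraries. FACIT genes supplied 34.4% ± 5.43 of collagen reads in shCtrl and 5.71% ± 1.11 in shFOXK2, and COL12A1 alone supplied 31.6% ± 5.54 and 4.94% ± 0.858 (SD, n = 2 each). Collagen VI genes supplied 43.9% ± 4.29 and 62.0% ± 0.523, transmembrane genes 3.64% ± 0.373 and 11.1% ± 4.92, fibrillar genes 2.52% ± 0.0644 and 5.18% ± 0.211, and collagen IV genes 5.95% ± 0.0658 and 2.59% ± 0.456. For these 5 classes the libraries of the groups did not overlap. Shares of 1 total are tied, so a lower share of one class is arithmetically a higher share of the rest.

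**Figure D4:**
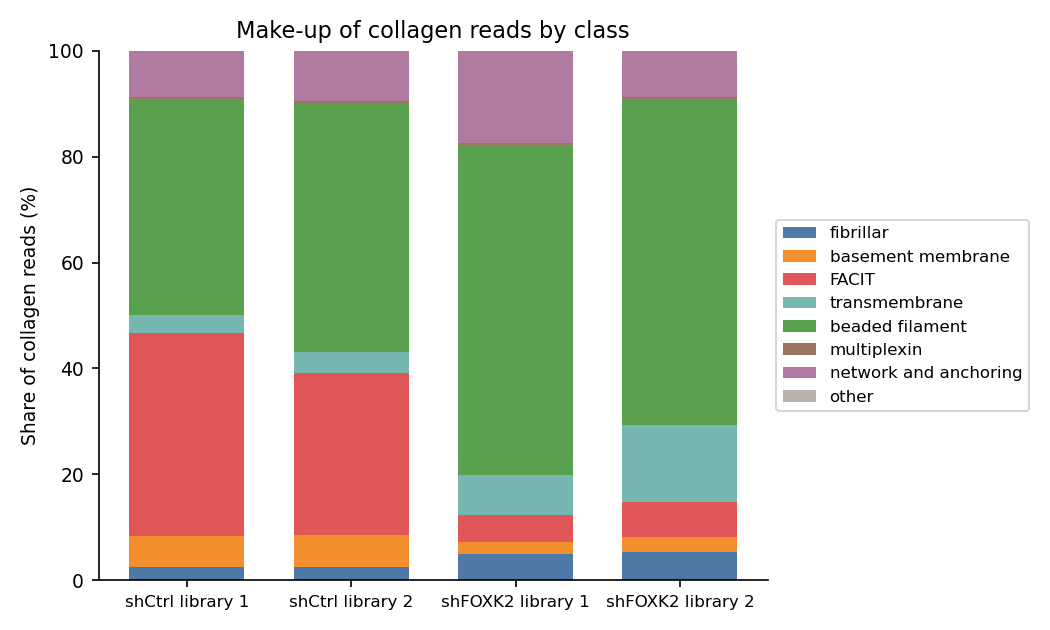
Share of collagen reads from each class in each library, stacked to 100%. The FACIT share is 38.3% and 30.6% in shCtrl against 4.92% and 6.49% in shFOXK2, and the beaded filament (collagen VI) share is 40.9% and 46.9% against 62.4% and 61.7%.

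Per length of transcript, the order of the leading genes also changed. In shCtrl the order was COL6A2 (84.8 CPM per kilobase), COL6A1 (66.1), COL12A1 (35.2), COL13A1 (14.8), COL7A1 (11.5) and COL4A5 (9.97), and no neighbours in this order had overlapping libraries. In shFOXK2 it was COL6A1 (99.0 CPM per kilobase), COL6A2 (76.1), COL13A1 (35.4), COL7A1 (16.3), COL27A1 (4.90) and COL12A1 (4.51). There the levels of COL6A1 and COL6A2 overlapped between libraries, although per length COL6A1 was 1.37 and 1.21 times COL6A2 within the libraries. The levels of COL27A1 and COL12A1 overlapped as well, and their order differed between the shFOXK2 libraries.

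Fold changes across the transcriptome moved with the base composition of the transcript, and the part of this in the collagen values was examined by an offset. The 23 tested members had a median A content of 21.9%, against 26% for the 14513 tested genes with a value. The 8 genes that fell ran from 19.2% to 28.5% A and the 4 that rose from 20.9% to 29.3%, which overlap, and COL12A1 was the richest in A of those that fell. Spearman's rho of log2 fold change with A content was 0.18 over the 23 members and 0.33 over the 14513 genes, as a description, since all points come from the same 4 libraries. With an offset on A content, which shifted the median of all tested genes by 0.17, the same 8 genes were lower and the same 4 were higher, together with COL6A1.

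FOXK2 belongs to the forkhead factors, whose usual site is GTAAACA with the shorter core TAAACA, so the 250 bases upstream of each start were searched on both strands. RefSeq windows were given for 32 of the 44 genes, 44 windows in all because some genes have several starts. GTAAACA was in 0 of the 44 windows and in 2.98% of all 35116 windows. The core, which every GTAAACA contains, was in 3 of the 44 windows (6.82%), those of COL9A1, COL13A1 and COL28A1, and in 11% of all windows. COL13A1 was the only tested member among the 3, and its window is shown with the core in capitals, up to the start in GENCODE (chr10:69801656-69801879, plus strand, GRCh38.p14). A match of letters does not show binding, and its absence from this window says nothing of sites elsewhere.

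COL13A1 upstream: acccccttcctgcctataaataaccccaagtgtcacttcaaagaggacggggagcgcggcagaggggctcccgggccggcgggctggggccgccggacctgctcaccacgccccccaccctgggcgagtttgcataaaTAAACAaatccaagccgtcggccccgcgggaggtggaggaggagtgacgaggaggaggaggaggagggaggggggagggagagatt

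A collagen chain needs enzymes and carriers before it reaches the matrix, and receptors once it is there. Of 67 genes listed for these roles, 55 were tested, and 25 fell and 4 rose, against 22.7% lower and 25.7% higher among all tested genes. The median log2 fold change of the 55 was −0.68. Of the 4 that rose, DDR2 and GP6 passed the filter through shFOXK2 alone, where they were higher.

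Enzymes that modify the chains in the endoplasmic reticulum came first. Of 14 tested hydroxylation and glycosylation genes, 6 fell and 1 rose (COLGALT2). P4HB, protein disulfide isomerase and a subunit of prolyl 4-hydroxylase, went from 1124 ± 111 to 428 ± 82.3 CPM (SD, n = 2 each). The fit gave a log2 fold change of −1.39 with SE 0.25 and edgeR adjusted p = 5.43e-04. P3H2, a prolyl 3-hydroxylase that acts on collagen IV, went from 398 ± 1.36 to 118 ± 51.5 CPM (log2 fold change −1.76, adjusted p = 3.23e-04), and PPIB, a proline isomerase, had −0.94 (adjusted p = 0.00523). COLGALT1, a collagen galactosyltransferase, had −0.68 (adjusted p = 0.0290), which did not pass with the replicate block (0.0590), with offsets on base composition (0.103 to 0.145), or without shCtrl replicate 2 (0.0690) or shFOXK2 replicate 2 (0.170). Of 15 folding and secretion genes 5 fell and 0 rose. CREB3L1, a membrane-bound transcription factor known to drive collagen I genes, went from 1955 and 1448 counts to 50 and 118 (log2 fold change −4.14, SE 0.33, adjusted p = 1.75e-06), and its paralog CREB3L2 had −1.99. FKBP9 and SEC23A, a peptidyl-prolyl isomerase and a coat protein of export vesicles, had −1.57 and −1.16. SERPINH1, the collagen chaperone HSP47, was at 299 ± 46.4 CPM in shCtrl and 321 ± 91.2 CPM in shFOXK2 (SD, n = 2 each), with an edgeR adjusted p of 0.766. It was outside the naming rule and was chosen after its values were seen.

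Steps outside the cell followed. Of 5 tested genes for propeptide removal, ADAMTS14 and BMP1, which cleave procollagen ends, fell (log2 fold changes −3.63 and −1.10) and PCOLCE2, an enhancer of that cleavage, rose (1.14). PCOLCE2 did not pass without shFOXK2 replicate 1 (0.62, adjusted p = 0.176). The cross-linking list had the lowest median, −2.05, with 5 of 6 tested genes lower and 0 higher. LOXL2, a lysyl oxidase that cross-links collagen IV, went from 305 ± 30.0 to 75.6 ± 14.01 CPM (SD, n = 2 each). The fit gave a log2 fold change of −2.01 with SE 0.25 and adjusted p = 3.90e-05. LOXL4 had −3.42, LOXL1 −1.21 and the transglutaminase gene TGM2 −2.08. LOXL1 did not pass with an offset on A content (−0.87, adjusted p = 0.0545) or without shFOXK2 replicate 1 (−0.83, adjusted p = 0.0699).

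Of 10 tested receptor genes 5 fell and 2 rose. DDR1, a receptor tyrosine kinase that collagen activates, gave 18732 and 14293 reads in shCtrl against 842 and 1158 in shFOXK2, with no overlap. DDR1 fell from 865 ± 35.9 to 61.4 ± 3.13 CPM (SD, n = 2 each). The fit gave a log2 fold change of −3.82 with SE 0.25 and adjusted p = 4.45e-07. The integrin genes ITGB1 and ITGA1 had −1.55 and −1.61, and ADGRG1, an adhesion receptor that binds collagen III, had −1.74. The genes that rose, DDR2 and GP6, had at most 15 counts in each library. Both passed the filter through shFOXK2 alone, where they were higher, so being tested was tied to their direction. Of 5 tested turnover genes, MMP14, a membrane-bound collagenase, and PRCP, a peptidase, fell (−1.998 and −0.938) and 0 rose. PRCP did not pass without shFOXK2 replicate 1 (−0.72, adjusted p = 0.0722).

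**Figure D5:**
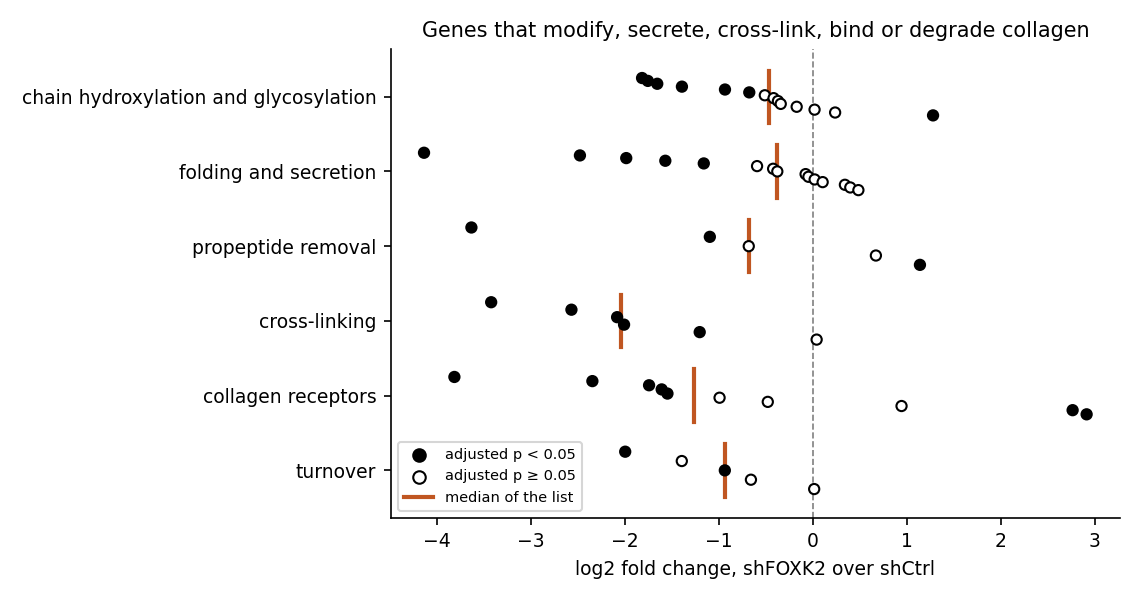
Log2 fold change of shFOXK2 over shCtrl for the 55 tested genes in 6 lists, filled where the adjusted p was under 0.05, with the median of each list as an orange line. All 6 medians lie below 0, from −0.38 for folding and secretion to −2.05 for cross-linking.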

How the data were processed

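Polyadenylated RNA of 4 OVCAR5 libraries, 2 per group, was sequenced as single reads. Per the study's methods and the submitters' processing notes, the authors aligned reads to hg38 with STAR 2.5.2 and assigned them to genes with HTSeq, and the deposited values are raw read counts per gene. The annotation release and strand setting are not given in the sources used here. The study tested genes with edgeR.

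Here groups came from the treatment labels. Genes were filtered by filterByExpr, scaled by the trimmed mean of M values and tested with the edgeR 4.0.16 quasi-likelihood F test in R 4.3.3 over all 4 libraries, with Benjamini-Hochberg adjustment over all genes tested and a threshold of 0.05. The SE was taken as the size of the log2 fold change over the root of F, and intervals are at 95%. Totals of 14284005 to 21950873 counts put 3 counts at 0.134 to 0.211 CPM. Reads carry no molecular identifiers, so counting intervals and floors cover counting error only. CPM per kilobase used the Ensembl canonical transcript of GENCODE on hg38. Members past the threshold or with a mean of at least 5 CPM in a group were described singly and the rest by counts and ranges. Pathway lists were described by counts and by up to 4 called genes of highest CPM. The members and lists were chosen with earlier results of these data known. Alternatives were DESeq2 1.42.0, the edgeR exact test, other scalings and filters, a replicate block, lowess offsets (span 0.2) on GC or A content of the transcript, and leaving out each library. The 11 other fits with all 4 libraries include a block with crossed replicate numbers, chosen after seeing the data.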

Additional observations from a re-analysis of the deposited data

How the results depend on the processing

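Of the 12 collagen calls, each kept its direction in every one of 11 alternatives that tested it, all with 4 libraries. Each also stayed past the threshold there. COL4A4, COL8A2, COL9A2, COL14A1, COL17A1 and COL22A1 were not tested under the stricter count filter. With at least 10 counts required in every library 16 members were tested, and 2 were higher and 5 lower, COL4A6 among the latter. Leaving out 1 library gave 2 to 6 members higher (2 without shCtrl replicate 1) and 8 to 9 lower. Pathway genes called higher numbered 2 by DESeq2, 2 with at least 10 counts in every library and 2 to 4 on leaving out a library (2 without shCtrl replicate 1). The small fold changes turned sign: COL1A1 was −0.077 with no filter and −0.18 to 0.16 on leaving out a library. Under composition offsets COL4A2 was 0.14 for GC, 0.14 for GC joined to the replicate block, and 0.18 for A content. COL6A2 was 0.19 with the A-content offset and −0.42 to 0.019 on leaving out a library, where COL6A3 ran from −0.090 to 0.65 and COL7A1 from −0.50 to 1.06. The cause was not tested.

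Deviations of same-numbered libraries from their group means correlated at −0.138 over genes. With 2 libraries per group this cannot show whether same-numbered libraries shared a culture or day. With the replicate block 4 members were higher and 9 lower, COL4A6 joining at −1.27 (edgeR adjusted p = 0.0351). A block with crossed numbers, chosen after seeing the data, gave 5 higher and 9 lower. The low-count filter left out the members under 10 counts. With no filter all 44 were tested, 5 were higher and 10 lower, and COL10A1, with 0 reads in either shCtrl library against 2 and 7 in shFOXK2, joined those higher (adjusted p = 0.0309), a call that rests on 9 reads.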
